A study of Mus musculus with 2 samples.

Results

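Injured ocular surface epithelium with an intermediate level of conjunctival keratins was described in 1 single-cell library of NaOH-injured wild-type cornea and of limbus, its border with the conjunctiva. Members were chosen by measured values, so those values are a description. Cells were kept with at least 2000 UMIs (unique molecular identifiers, each counting 1 captured transcript) and at most 20% mitochondrial UMIs. They had to hold at least 3000 counts per 1000000 UMIs (CPM) of the basal keratins Krt5 and Krt14 together, and fewer than 4 of 8 cell cycle genes (Mki67, Top2a, Ube2c, Cenpf, Birc5, Cdk1, Ccnb1 and Ccnb2). The summed level of Krt4, Krt13 and Krt19 then set 3 bands: intermediate, from 1500 to under 6000 CPM, low, under 1500 CPM, and high, 6000 CPM or more. The intermediate band held 341 of 5030 such cells, the low band 4185 and the high band 504, out of 9399 barcodes in the injured library and 16889 in the series. The series has 1 other library, an uninjured wild-type control of the same tissue with 7490 barcodes, and the same rule was applied to it. The injured library held 108863350 UMIs and the uninjured one 85457541. Most of the conjunctiva was dissected away before digestion in both libraries, and the sources used here give neither the time after injury nor the number or age of the mice. The bands come from 1 library and each condition has 1 library, so no difference has a replicate check, no test was made, and the 95% intervals cover counting error only.

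Stratified epithelia change their keratins with place and depth. Basal cells hold Krt5 and Krt14, the corneal surface layers are known for Krt12, and the mucosal epithelium of the conjunctiva is known for the keratin pair Krt4 and Krt13 and for Krt19. Krt6a, Krt6b, Krt16 and Krt17 are keratins of injured or rapidly renewing epithelium. Basal cells are held to the basement membrane by hemidesmosomes, built around the integrin chains Itga6 and Itgb4 and the collagen Col17a1, and upper cells are sealed to each other by claudins and desmosomes.

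The genes that set the band lie in 2 places of the genome. Krt13 (11:100117327-100121566), Krt15 (11:100131758-100135928) and Krt19 (11:100140810-100148665), all on the minus strand of GRCm38 in the GENCODE M21 annotation, span 31.3 kb of the type I keratin cluster on chromosome 11. Krt4 (15:101918535-101924735, minus strand) is a type II keratin gene on chromosome 15. Sequences upstream of 3 genes are shown because the results turn on them: Krt13 as a keratin of the rule, and Serpinb3a and Ppbp as the genes that went with different keratins among the members. Each is the 250 bases before the RefSeq start of the gene (GRCm38.p6), the one of 2 listed starts for Krt13 that meets the gene coordinates above, read 5′ to 3′ on the gene's own strand, with the searched motifs in capitals. Krt13 lies at chr11:100121567-100121816 (minus strand), Serpinb3a at chr1:107052304-107052553 (minus strand) and Ppbp at chr5:90768268-90768517 (plus strand).
Krt13: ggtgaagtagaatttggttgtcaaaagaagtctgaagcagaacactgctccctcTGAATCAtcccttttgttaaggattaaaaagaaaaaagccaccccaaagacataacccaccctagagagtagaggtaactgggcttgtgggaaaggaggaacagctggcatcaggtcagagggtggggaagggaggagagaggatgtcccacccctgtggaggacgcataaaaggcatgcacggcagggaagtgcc
Serpinb3a: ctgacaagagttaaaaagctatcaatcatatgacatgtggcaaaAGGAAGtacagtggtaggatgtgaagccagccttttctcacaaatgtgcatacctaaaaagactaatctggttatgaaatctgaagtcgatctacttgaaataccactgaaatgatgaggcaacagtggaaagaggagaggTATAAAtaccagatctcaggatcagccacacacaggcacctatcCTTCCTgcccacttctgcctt
Ppbp: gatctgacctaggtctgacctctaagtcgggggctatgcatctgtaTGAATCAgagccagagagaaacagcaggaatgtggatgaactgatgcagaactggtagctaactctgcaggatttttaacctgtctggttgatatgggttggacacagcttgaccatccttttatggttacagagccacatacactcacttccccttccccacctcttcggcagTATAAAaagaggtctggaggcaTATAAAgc

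Motifs of 4 kinds were searched on both strands. TGANTCA, the letters bound by AP-1 factors, stands 196 to 190 bases before the start of Krt13 and 204 to 198 bases before that of Ppbp, and 6.87% of 27025 RefSeq promoters hold it in the same 250 bases. The TATA box letters TATAAA stand in the Serpinb3a and Ppbp windows and in 12.97% of promoters. AGGAAG, an ETS core, stands in the Serpinb3a window on both strands and in 29.2% of promoters. AACCNGTT, the grainyhead letters, is in none of the 3 windows and in 1.71% of promoters. None of these motifs overlap in the printed windows, and a match is a description of the letters only.

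The intermediate band held 6.78% of gated cells in the injured library (95% Clopper-Pearson interval 6.10 to 7.51) and 6.27% in the uninjured library (5.58 to 7.02, 280 of 4466 cells). The intervals overlap, and the order of the libraries turned with a higher limit on Krt5 and Krt14, at 6.67% of injured and 7.02% of uninjured cells. The bands on either side differed more between the libraries: the high band held 10.02% of injured and 2.04% of uninjured gated cells, and the low band 83.2% of injured and 91.7% of uninjured gated cells. The keratin sum of the members had a median of 2825 CPM, or 39.0 UMIs per cell, against 173 CPM in the low band and 14526 CPM in the high band, values that the rule itself fixed. The 2 sides of each bound were close, with cells at 1496 and 1516 CPM around the lower bound and at 5989 and 6042 CPM around the upper one. The counting interval of the keratin sum lay inside the band for 187 of the 341 members, reached the lower bound in 103 and the upper bound in 51. When the bands were set on a random portion of each cell's UMIs and the sum was measured in the remaining UMIs, the bands stood at 3249 CPM (intermediate), 279 CPM (low) and 17013 CPM (high). Median depth was 13358 UMIs per cell in the intermediate, 10987 in the low and 15859 in the high band.

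**Figure D1:**
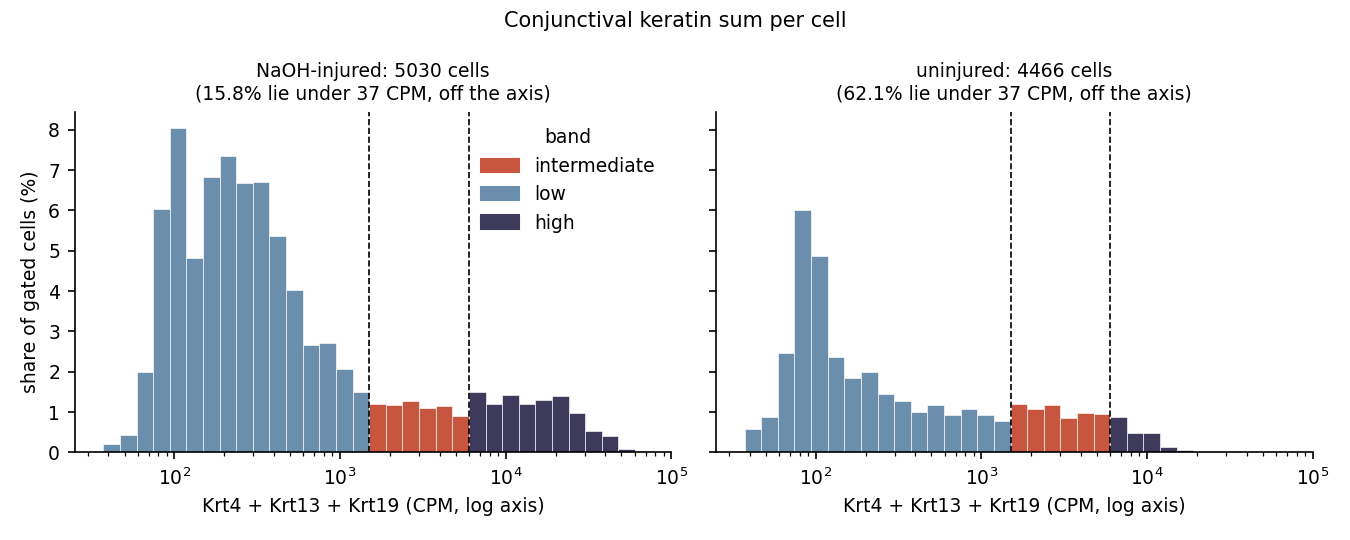
Share of gated cells (%) by the summed level of Krt4, Krt13 and Krt19 per cell (CPM, log axis) in the injured library, left, and the uninjured library, right, with the bounds of the intermediate band at 1500 and 6000 CPM dashed. The distribution passes through the intermediate band with no gap on either side, and the high band holds 504 injured and 91 uninjured cells.

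The 2 libraries shared 15 barcodes, none of them a member. Free RNA was judged from 792 injured cells rich in stromal transcripts (collagens and decorin at 5000 CPM or more, keratins under the gate), with a median of 12013 UMIs. Their summed Krt4, Krt13 and Krt19 level was 133 CPM, and 6 of them (0.758%, interval 0.279 to 1.64) reached 1500 CPM. After every cell was thinned to 2000 UMIs, Krt4 was detected in 67.2% of members and 5.81% of stromal cells. Krt13 was detected in 79.2% of members and 9.22% of stromal cells, and Krt19 in 52.5% of members and 4.92% of stromal cells. Members were chosen by the sum of these keratins and stromal cells were not, so the higher detection in members follows from the rule. The detection values are a description and cannot show that the keratins of the members exceed free RNA.

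Of the 4 genes given as markers of this epithelium, Serpinb3a and Krt15 stood between the 2 other bands, and Areg was lower than in both. Krt4 also stood between them, but it is a keratin of the rule, so its place is a description only. Serpinb3a, an intracellular protease inhibitor of the serpin family, was at 933 CPM in the intermediate band, 168 CPM in the low and 1912 CPM in the high band, 5.56-fold above low (5.37 to 5.76) and 2.05-fold below high (1.99 to 2.11). Per cell it ran from 0 over a median of 622 to 7063 CPM in the intermediate band, against a median of 0 and a highest value of 9092 CPM in the low and a median of 1524 and a highest value of 18765 CPM in the high band. The ranges of the bands overlapped. Krt15, a keratin of limbal and other basal cells, was at 9066 CPM in the intermediate, 2701 CPM in the low and 19855 CPM in the high band, and its member cells ran from 40.1 over a median of 9204 to 32463 CPM. Areg, a ligand of the EGF receptor, was at 801 CPM in the intermediate, 1126 CPM in the low and 954 CPM in the high band, 1.41-fold below low (1.37 to 1.45) and 1.19-fold below high (1.15 to 1.23). Its detection after thinning hardly separated the bands, at 65.7% of intermediate, 62.4% of low and 67.5% of high cells, against 7.45% of the stromal cells. Reads of Serpinb3a can be split among its near-identical neighbours, and those of Krt6a and Krt6b between the 2 genes, so these values are uncertain to that extent.

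**Figure D2:**
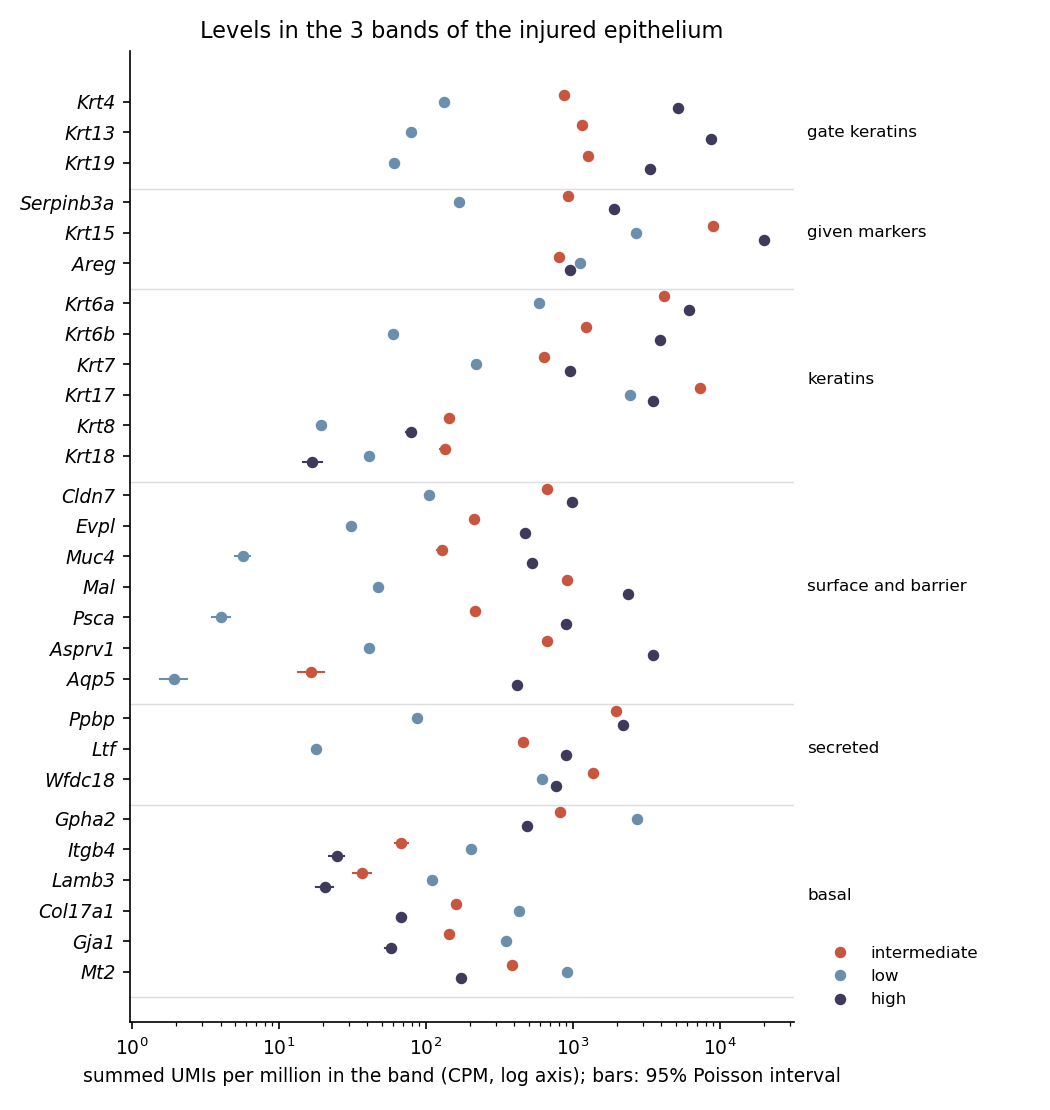
Level from summed UMIs (CPM, log axis) of 28 genes in the intermediate, low and high bands of the injured epithelium, with 95% Poisson intervals that are mostly narrower than the points. Most intermediate values lie between the other 2, while Krt17, Krt8, Krt18 and Wfdc18 are highest and Areg is lowest in the intermediate band. Krt4, Krt13 and Krt19 are the keratins of the rule.

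Across all genes the intermediate band also stood mostly between its neighbours. Of 5330 genes with at least 20 CPM in a band, 4038 (75.8%) had an intermediate level strictly between low and high. Set against the low band, 787 of 5063 genes were at least 1.5-fold higher (15.5%) and 727 were at least 1.5-fold lower (14.4%). Set against the high band, 491 of 4824 genes were at least 1.5-fold higher (10.2%) and 473 at least 1.5-fold lower (9.81%). At a limit of 2-fold the shares against the low band were 8.61% higher and 4.37% lower, and against the high band 2.28% higher and 4.1% lower. A gene counts as higher or lower in what follows past this 1.5-fold limit, with the 13 genes of the rule left out. Genes under 20 CPM in 1 of the 2 groups compared were measured only through the other group. Such genes could not come out higher in the group where they were under that limit, and the counts below include them.

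Keratins outside the rule moved together. All 13 measured members of this list were higher in the intermediate than in the low band, with a median log2 ratio of 2.37 against -0.05 over all genes. Krt6a was at 4178 CPM in the intermediate, 591 CPM in the low and 6191 CPM in the high band, and was detected in 97.7% of thinned member cells and 13.6% of the stromal cells. Krt6b, its close copy, was at 1231 CPM in the intermediate, 59.5 CPM in the low and 3890.2 CPM in the high band. Krt7, a keratin of simple and conjunctival epithelium, was at 637 CPM in the intermediate, 219 CPM in the low and 953 CPM in the high band. Against the high band the same 13 keratins split, with 5 higher and 4 lower in the intermediate band. The 5 were Krt8, Krt12, Krt17, Krt18 and Krt75. Among all genes 10.2% were higher and 9.81% lower than in the high band, and 15.5% were higher than in the low band.

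Krt17, a keratin of wound edges and hair follicles, was the most abundant of the keratins that peaked in the intermediate band, at 7371 CPM against 2452 CPM in the low band (3.01-fold, 2.97 to 3.04) and 3526 CPM in the high band (2.09-fold, 2.06 to 2.12). Member cells ran from 0 over a median of 2996 to 36645 CPM, the low band had a median of 1392 and a highest value of 38838 CPM, and the high band a median of 1380 and a highest value of 32814 CPM. The simple epithelial pair Krt8 and Krt18 rested on few cells. Krt8 was at 144 CPM in the intermediate, 19.3 CPM in the low and 78.8 CPM in the high band, and Krt18 at 134 CPM in the intermediate, 41.0 CPM in the low and 16.9 CPM in the high band. The 10 member cells with most UMIs of each held 73.7% of the Krt8 and 81.7% of the Krt18 UMIs of the band, against 27.6% for Krt17. In all, 71 of 5330 genes (1.33%) stood above both neighbours by at least 25% and 28 (0.525%) stood below both by the same ratio. The named peaks beside the keratins were Wfdc18, Flt1, Sftpd, Las1l and Bola3, and the named troughs included Phlda1, at 955 CPM in the intermediate, 1314 CPM in the low and 1297 CPM in the high band, and Foxp1, a forkhead factor, at 99.8 CPM in the intermediate, 138 CPM in the low and 126 CPM in the high band. The Wfdc18 peak is one of whole bands, and its level in cells alike in their main keratin of the rule is given further below.

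Most measured genes of the secreted defence and chemokine lists were higher in the intermediate than in the low band, and some were lower. Of the antimicrobial and alarmin list 8 of 14 measured members were higher and 3 lower, and of the epithelial cytokines and chemokines 9 of 15 were higher and 4 lower. Among all genes 15.5% were higher and 14.4% lower in this comparison. Ppbp, the chemokine CXCL7 best known from platelets, was at 1965 CPM in the intermediate, 86.5 CPM in the low and 2199 CPM in the high band, 22.7-fold above low (21.9 to 23.5) and 1.12-fold below high (1.09 to 1.14). Its member cells ran from 0 over a median of 95.5 to 19166 CPM, and 38.7% of them held it after thinning, against 5.93% of stromal cells. Ltf, the iron-binding protein lactoferrin, was at 459 CPM in the intermediate, 17.8 CPM in the low and 905 CPM in the high band. Pglyrp1, a peptidoglycan recognition protein, was at 757 CPM in the intermediate, 124 CPM in the low and 2810.1 CPM in the high band, and the alarmin Il33 was at 64.9 CPM in the intermediate, 4.11 CPM in the low and 69.1 CPM in the high band. The chemokines were not uniform. Cxcl1, which attracts neutrophils, was 2.85-fold lower in the intermediate than in the low band (2.53 to 3.21), at 49.7 CPM against 142 CPM, and Cxcl2 was at 152 CPM against 279 CPM.

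Genes of cell contacts and of the upper epithelial layers were higher in the intermediate than in the low band. This held for 10 of 11 measured tight junction genes (median log2 ratio 1.96), 7 of 9 desmosome genes (1.19) and 12 of 13 genes of the cornified envelope and stratification (2.17), with none lower in these lists. Over all genes 15.5% were higher and 14.4% lower. Cldn7, a claudin, was at 666 CPM in the intermediate, 104 CPM in the low and 980.0 CPM in the high band. Perp, a desmosomal membrane protein, was at 1974 CPM in the intermediate, 672 CPM in the low and 2206 CPM in the high band. Evpl, or envoplakin, a scaffold of the cornified envelope, was at 214 CPM in the intermediate, 31.1 CPM in the low and 471 CPM in the high band. Among conjunctival genes outside the rule 15 of 16 were higher than in the low band, with Fxyd3 as the exception at 1439 CPM in the intermediate and 1272 CPM in the low band. Muc4, a membrane mucin, was at 128 CPM in the intermediate, 5.67 CPM in the low and 531 CPM in the high band. Psca, a surface protein anchored by a lipid tail, had the largest ratio to the low band among the genes named, 53.6-fold (46.1 to 62.5), at 216 CPM in the intermediate, 4.03 CPM in the low and 894 CPM in the high band. Its 10 highest member cells held 92.0% of its UMIs in the band, 13.8% of members had any, and its value is that of few cells.

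Transcription factors of the epithelium went both ways against the low band, and most passed the 1.5-fold limit in neither direction. Elf3, an ETS factor of barrier epithelia, was at 274 CPM in the intermediate, 63.4 CPM in the low and 496 CPM in the high band. Hopx, a homeodomain-only protein, was at 187 CPM in the intermediate, 12.7 CPM in the low and 522 CPM in the high band. Grhl3, a grainyhead factor of barrier formation, was at 23.7 CPM in the intermediate, 2.91 CPM in the low and 36.0 CPM in the high band. Of the 28 factors measured 8 were higher, 5 lower and 15 neither against the low band, where 15.5% of all genes were higher and 14.4% lower. Trp63, the factor of basal cells, was at 42.9 CPM in the intermediate, 77.1 CPM in the low and 27.9 CPM in the high band. The same shares over all genes stand beside the next 2 lists. Of 19 antioxidant and glutathione genes 4 were higher and 4 lower than in the low band, with a median log2 ratio of 0.09, and of 21 retinoid and lipid genes 12 were higher and 4 lower. Gsto1, a glutathione transferase, was at 7928 CPM in the intermediate, 1054 CPM in the low and 21999 CPM in the high band, and Rbp2, a carrier of retinol, at 957 CPM in the intermediate, 90.1 CPM in the low and 1986 CPM in the high band. Gsto1 was also found in 42.6% of thinned stromal cells, against 97.9% of members, and its level in those cells was 505 CPM.

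Genes of basal attachment and of the limbus were lower in the intermediate than in the low band. Of 13 hemidesmosome and basement membrane genes 10 were lower and none higher (median log2 ratio -0.99), and of 18 limbal and basal genes outside the rule 12 were lower and 3 higher. The 3 were Krt15, Socs3 and Txnip. Among all genes 14.4% were lower and 15.5% higher, so the share of higher limbal and basal genes was close to that over all genes. Itgb4, the beta chain of the hemidesmosomal integrin, was at 68.1 CPM in the intermediate, 202 CPM in the low and 24.7 CPM in the high band, 2.96-fold below low (2.68 to 3.28) and 2.76-fold above high (2.36 to 3.24). Lamb3, a chain of the laminin that anchors basal cells, was at 36.8 CPM in the intermediate, 109.9 CPM in the low and 20.5 CPM in the high band. Col17a1 was at 161 CPM in the intermediate, 433 CPM in the low and 68.2 CPM in the high band. Gpha2, a glycoprotein hormone subunit known as a marker of limbal stem cells in mice, was at 821 CPM in the intermediate, 2753 CPM in the low and 485 CPM in the high band. Gpha2 was also at 658 CPM in the stromal cells, and the part of free RNA in its lower values was not tested.

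In the signalling lists some members were lower than in the low band, where 14.4% of all genes were lower. Of the TGF-beta and BMP list 7 of 15 measured members were lower and none higher, among them Fst, the activin inhibitor follistatin, at 86.5 CPM in the intermediate, 190.4 CPM in the low and 39.7 CPM in the high band. Of the Wnt list 5 of 9 were lower and none higher, with the ligand Wnt10a at 16.3 CPM in the intermediate, 62.3 CPM in the low and 9.57 CPM in the high band. Of 8 Notch genes 3 were higher and 3 lower: the receptor Notch3 was at 37.3 CPM in the intermediate and 6.92 CPM in the low band, and the ligand Jag2 at 13.3 CPM in the intermediate and 47.4 CPM in the low band. Of 24 wound and migration genes 13 were lower and 4 higher than in the low band, with a median log2 ratio of -0.61, and the 4 were the keratins Krt6a, Krt6b, Krt16 and Krt17. Of 9 EGF receptor ligands and receptors 1 was higher (Erbb3) and 2 lower (Ereg and Nrg1). Of 14 glycolysis genes none was higher and 2 were lower, and of 19 immediate early genes 1 was higher and 3 lower, shares of lower genes close to that over all genes.

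Against the high band 7 of 15 genes of the cornified envelope and stratification were lower in the members and 1 was higher, with a median log2 ratio of -0.44 against 0.07 over all genes. Among all genes 9.81% were lower and 10.2% higher than in the high band. Aqp5, a water channel, was at 16.5 CPM in the intermediate and 414 CPM in the high band, 25.1-fold lower (20.5 to 31.0), with 1.92 CPM in the low band. Cyp2a5, a cytochrome P450 enzyme, was at 15.3 CPM in the intermediate, 0.757 CPM in the low and 199 CPM in the high band. Asprv1, a protease of the upper epidermis, was at 664 CPM in the intermediate, 40.9 CPM in the low and 3531 CPM in the high band, and the 10 highest members held 71.5% of its UMIs. In the other direction Gja1, the gap junction protein connexin 43, was at 144 CPM in the intermediate, 353 CPM in the low and 57.4 CPM in the high band, and Mt2, a metallothionein, at 386 CPM in the intermediate, 918 CPM in the low and 174 CPM in the high band. Of 10 hemidesmosome genes measured against the high band 5 were higher in the intermediate band and none lower, beside the 10.2% higher over all genes. In all, 765 of 5330 genes (14.4%) were higher at each step up the keratin sum by at least 25% and 966 (18.1%) were lower at each step by the same ratio.

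Finer bins of the keratin sum showed 3 courses inside the band. Krt15 was higher in each successive bin, at 7316, 8768, 9249.8 and 11354 CPM in the 4 bins from 1500 to 6000 CPM of the keratin sum. Gpha2 was at 984, 996, 692 and 627 CPM in the same bins. Ppbp was at 1119, 982, 3045 and 2369 CPM inside the band and at 3234 and 1483 CPM in the 2 bins above it, and its 10 highest members held 47.5% of its UMIs in the band. Krt17 was highest in the bin from 3000 CPM, at 9298 CPM, against 2124 CPM under 500 CPM of the keratin sum and 1853 CPM from 12000 CPM upward. The bins inside the band held 104, 79, 93 and 65 cells.

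**Figure D3:**
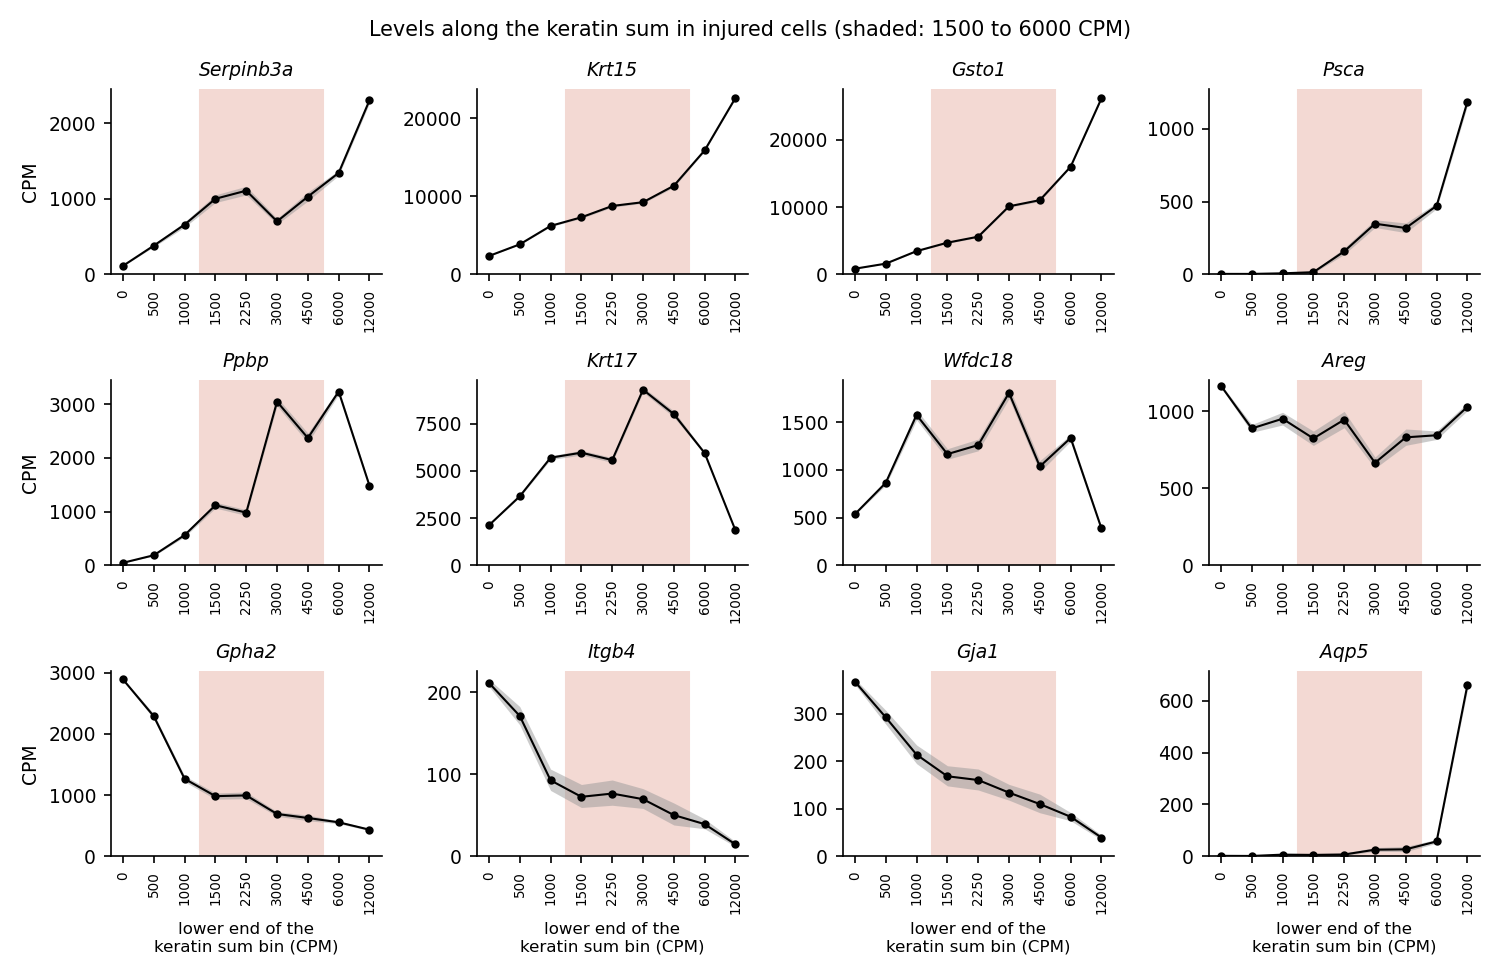
Level (CPM, linear axes that start at 0) of 12 genes in 9 bins of the summed Krt4, Krt13 and Krt19 level of injured cells, with 95% Poisson intervals in grey and the intermediate band shaded. Serpinb3a, Krt15 and Gsto1 are highest and Gpha2, Itgb4 and Gja1 lowest in the last bin, while Krt17 and Wfdc18 are highest inside the band.

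The members differed in which keratin of the rule had most UMIs. Krt19 had most UMIs of the 3 keratins of the rule in 105 members, Krt13 in 117 and Krt4 in 108, with 11 ties, and the leading keratin made up a median of 64.2% of the sum. All 3 keratins were detected in 203 members (59.5%, 54.1 to 64.8). In the high band Krt13 led in 59.1% of cells (54.7 to 63.5), and in the uninjured intermediate band in 84.3% (79.5 to 88.3), against 34.3% of the members (29.3 to 39.6). UMIs count transcripts and were not scaled by length. The split by leading keratin uses genes of the rule and was made after earlier values were known, so it is a description. Median depth was 17804 UMIs in Krt19-led, 13484 in Krt13-led and 12412 in Krt4-led members.

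Krt19-led and Krt4-led members held different secreted and wound-associated transcripts. Serpinb3a was at 263 CPM in Krt19-led, 1061 CPM in Krt13-led and 1702 CPM in Krt4-led members, 6.46-fold lower in Krt19-led than in Krt4-led cells. Ppbp showed the opposite order, at 4120.1 CPM in Krt19-led, 1047 CPM in Krt13-led and 114 CPM in Krt4-led members, 36.0-fold higher in Krt19-led than in Krt4-led cells (31.0 to 42.0). Wfdc18, a small secreted WAP domain protein, was at 2753 CPM in Krt19-led, 869.9 CPM in Krt13-led and 84.6 CPM in Krt4-led members. Ecm1, a secreted matrix protein, was at 1624 CPM in Krt19-led, 419.9 CPM in Krt13-led and 81.4 CPM in Krt4-led members. Krt17 was at 13496 CPM in Krt19-led, 4319.9 CPM in Krt13-led and 2797 CPM in Krt4-led members. Gpha2 was at 387 CPM in Krt19-led, 967 CPM in Krt13-led and 1278 CPM in Krt4-led members. The stromal cells held it at 658 CPM, above the Krt19-led value. After thinning it was found in 25.3% of stromal cells and 38.1% of Krt19-led members, and the part of free RNA was not tested. Psca, carried by few members, was at 73.7 CPM in Krt19-led, 559 CPM in Krt13-led and 5.17 CPM in Krt4-led members. Krt8 and the actin Acta2, whose 10 highest member cells held 73.7% and 57.8% of their UMIs in the band, were at 332 and 235 CPM in Krt19-led and at 23.3 and 16.8 CPM in Krt4-led members. At equal depth, after thinning to 2000 UMIs, Ppbp was found in 77.1% of Krt19-led (67.9 to 84.8), 29.9% of Krt13-led (21.8 to 39.1) and 11.1% of Krt4-led members (5.87 to 18.6). Serpinb3a was found in 26.7% of Krt19-led (18.5 to 36.2), 68.4% of Krt13-led (59.1 to 76.7) and 84.3% of Krt4-led members (76.0 to 90.6), and the stromal cells held Ppbp in 5.93% and Serpinb3a in 2.40%. The 2 genes were found together in 45 of the 341 thinned members (13.2%, 9.79 to 17.3), Serpinb3a alone in 159, Ppbp alone in 87 and neither in 50.

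Cells outside the band held Ppbp in the same order by leading keratin, counted where that keratin had at least 3 UMIs. In the high band Ppbp was at 5921 CPM in Krt19-led, 1559 CPM in Krt13-led and 297 CPM in Krt4-led cells (102, 298 and 99 cells), and in the low band at 545 CPM in Krt19-led, 171 CPM in Krt13-led and 31.6 CPM in Krt4-led cells (213, 201 and 761 cells). Serpinb3a was at 580.1 CPM in Krt19-led and 2744 CPM in Krt4-led cells of the high band, and at 55.8 CPM in Krt19-led and 313 CPM in Krt4-led cells of the low band. Krt13-led cells had the highest Serpinb3a level of the low band, 449.8 CPM. Wfdc18, a peak over whole bands, was at 2602 CPM in Krt19-led, 945 CPM in Krt13-led and 133 CPM in Krt4-led cells of the low band. These values were close to or above the 2753, 869.9 and 84.6 CPM of the members in the same order. The part of the mix of leading keratins in the Wfdc18 peak was not tested. All of these cells are from the same library.

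**Figure D4:**
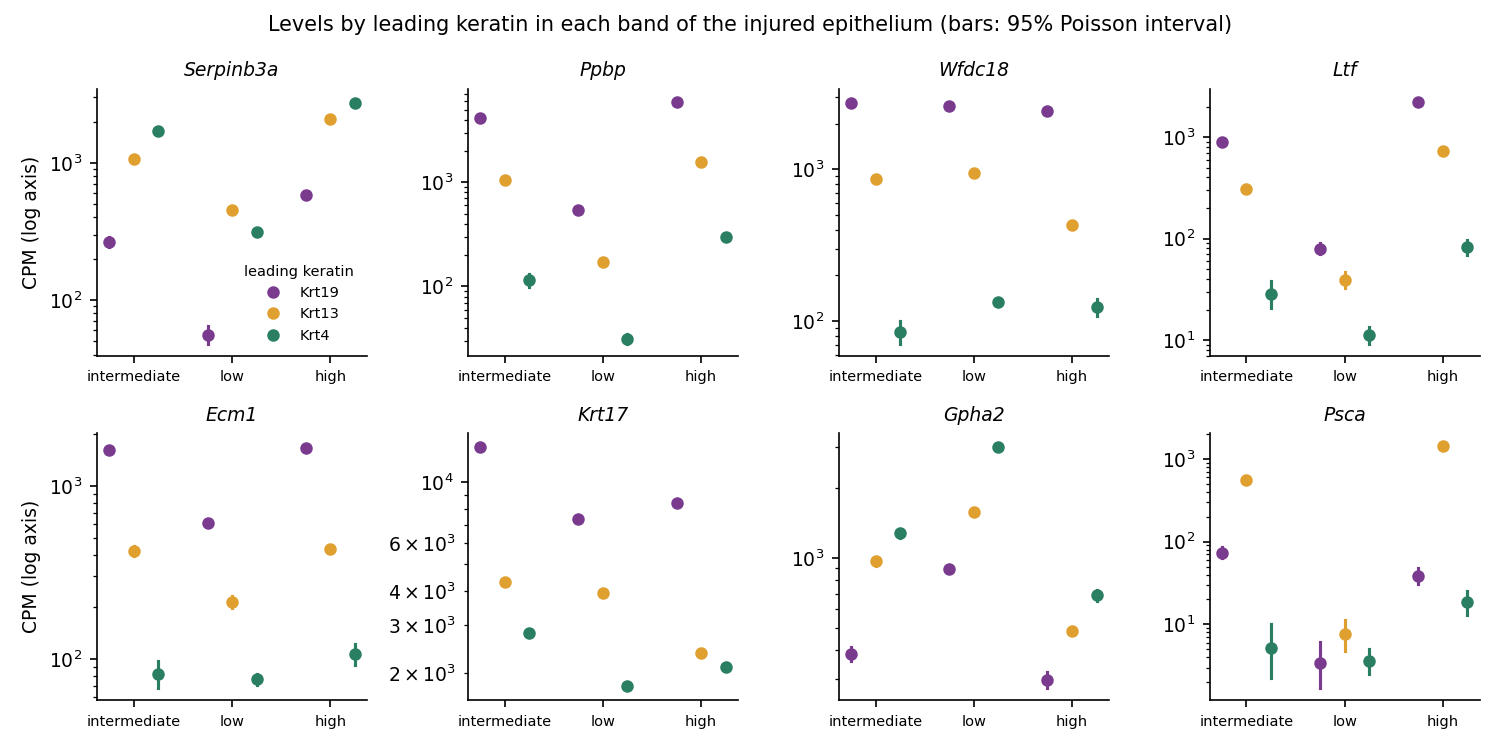
Level (CPM, log axes) of 8 genes in Krt19-led, Krt13-led and Krt4-led cells of the intermediate, low and high bands, with 95% Poisson intervals. In each band Ppbp, Wfdc18, Ltf, Ecm1 and Krt17 are highest in Krt19-led cells, Serpinb3a is lowest in Krt19-led cells, and Psca is highest in Krt13-led cells, in the low band with overlapping intervals.

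Clustering the 5030 gated injured cells without the genes of the rule placed most members in 2 of 10 clusters. Cluster 8, led by Psca, Aqp5 and Ifit1bl1, held 124 members (36.4%, 31.2 to 41.7) beside 441 high and 24 low cells. Cluster 6, led by Serpinb3a, Adh7 and Pir, held 177 members (51.9%, 46.5 to 57.3) beside 30 high and 505 low cells. The share of cells in cluster 8 was 15.4%, 24.1%, 53.8% and 60.0% in the 4 bins of the band from its lower to its upper bound, and the share in cluster 6 was 72.1%, 65.8%, 34.4% and 27.7% in the same bins. Members in cluster 8 were Krt19-led in 46.8% (37.8 to 55.9) and those in cluster 6 in 19.8% (14.2 to 26.4). Within cluster 8 Krt15 was at 9398 CPM in members and 20132 CPM in high cells, and within cluster 6 it was at 8861 CPM in members and 4774 CPM in low cells. With 15 components in place of 30, the cluster with most high cells held 16.4% and the largest other one 71.0% of members, so the size of the split rests on that setting.

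**Figure D5:**
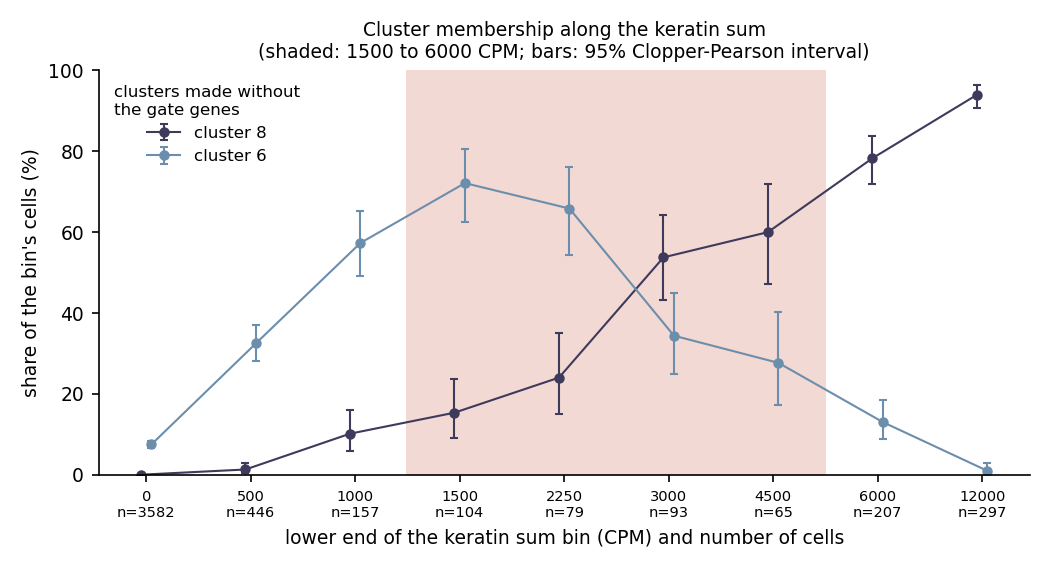
Share of cells (%) in cluster 8 and cluster 6, made without the genes of the rule, in 9 bins of the summed Krt4, Krt13 and Krt19 level, with 95% Clopper-Pearson intervals, the number of cells under each bin and the intermediate band shaded. Cluster 6 has the larger share below 3000 CPM of the band and cluster 8 the larger share above it.

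The other 40 members lay in clusters led by genes of other cells or in small numbers elsewhere. Cluster 9, led by the complement genes C1qa and C1qc, held 17, cluster 7, led by Saa3 and Mfap2, held 7, and cluster 2, led by the endothelial gene Cldn5, held 2. Doublet scores passed the cutoff in 55.0% of these 40 members (38.5 to 70.7), 2.42% of members in cluster 8 and 3.39% of those in cluster 6, and in 9.09% of intermediate, 7.26% of low and 5.36% of high cells in all. The summed level of the 12 stromal markers was 11260.4 CPM in the 40 members, 401 CPM in members of cluster 8 and 275 CPM in those of cluster 6. It was 1549 CPM over the intermediate, 1417 CPM over the low and 1068 CPM over the high band, with 0 of 12 genes at 0 in each. The 12 neutrophil markers summed to 256 CPM in the intermediate, 135 CPM in the low and 251 CPM in the high band, with Ly6g at 0 in all 3 and Retnlg also at 0 in the intermediate band. The 12 macrophage markers summed to 71.5 CPM in the intermediate, 117 CPM in the low and 77.9 CPM in the high band, with Adgre1 at 0 in the intermediate band. The 10 vascular endothelial markers summed to 80.7 CPM in the intermediate, 47.3 CPM in the low and 32.7 CPM in the high band. Flt1, a named peak, was the only gene of them with at least 20 CPM in the bands compared. Their sum was 107 CPM in members of cluster 8, 32.8 CPM in those of cluster 6 and 155 CPM in the 40 members. The 10 mural markers, which include Acta2, summed to 149.7 CPM in the intermediate, 147 CPM in the low and 74.2 CPM in the high band, with Des at 0 in the intermediate band. The 10 Schwann cell markers summed to 161 CPM in the intermediate, 108 CPM in the low and 179.8 CPM in the high band, with Cdh19 and S100b at 0 in the intermediate band. Without the cells of clusters 2, 7 and 9, 139 of 141 named genes past 1.5-fold against the low band stayed past it in the same direction, and 105 of 111 against the high band. Melanocyte markers summed to 2.21 CPM and T and NK cell markers to 0.852 CPM over the members.

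Set against all gated cells of the uninjured library, the injured members held less of the transcripts of mature corneal epithelium, as did the other injured bands. The corneal list summed to 1005 CPM in the injured intermediate, 1098 CPM in the injured low and 2021 CPM in the injured high band, against 54724 CPM in uninjured gated cells. Of 5035 genes 795 were higher (15.8%) and 725 lower (14.4%), or 8.14% higher and 6.93% lower at 2-fold, and all 16 corneal genes were among the lower ones, with a median log2 ratio of -5.42. Krt12 was at 85.8 CPM in the injured members and 20660.3 CPM in uninjured gated cells, 241-fold lower (221 to 263). Lypd2 had no UMI in the members. Counted as 3 UMIs over the band, it stood 12508-fold below the 6390.5 CPM of uninjured gated cells, a ratio set by that floor. Of 19 immediate early genes 17 were lower and none higher, with Fos at 618 CPM in the injured members and 2412 CPM in uninjured gated cells. The immediate early list summed to 6384 CPM in the injured intermediate, 7678 CPM in the injured low and 6296 CPM in the injured high band, against 13978 CPM in uninjured gated cells. Of 13 antimicrobial genes 11 were higher and none lower. The antimicrobial and alarmin list was also above the uninjured level in the other injured bands. It summed to 5027 CPM in the injured intermediate, 2892 CPM in the injured low and 7033 CPM in the injured high band, against 773 CPM in uninjured gated cells. Ppbp, at 0.441 CPM in uninjured gated cells, and Wfdc18, at 0.918 CPM, were close to absent there, and in the uninjured intermediate band they stood at 0.362 and 0.543 CPM.

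Values of 5 genes in the bands of the uninjured library are given beside these. Krt15 was at 8669.8 CPM in uninjured intermediate and 876 CPM in uninjured low cells, and Krt6b at 2844 CPM in uninjured intermediate and 279 CPM in uninjured low cells. Itgb4 was at 19.5 CPM in uninjured intermediate and 144 CPM in uninjured low cells, and Col17a1 at 156 CPM in uninjured intermediate and 682 CPM in uninjured low cells. Areg was higher in the uninjured intermediate than in the uninjured low band, at 376 CPM in uninjured intermediate and 196 CPM in uninjured low cells. Set directly against the uninjured intermediate band, 963 of 5049 genes were higher in the injured members (19.1%) and 905 lower (17.9%), or 9.13% higher and 9.19% lower at 2-fold. All 16 corneal genes were lower, but those under 20 CPM in the members could not have come out higher. Of 12 tight junction genes none was higher and 6 were lower, of 13 glycolysis genes 10 were higher and none lower, and of 20 wound and migration genes 15 were higher and 3 lower. Injury, mouse and library preparation cannot be told apart in these comparisons.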

How the data were processed

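Single-cell RNA was measured in 1 library of injured and 1 of uninjured mouse tissue on the 10x platform. The authors deposited UMI counts per gene and barcode, for 32285 genes. Per the file headers the software was Cell Ranger 7.0.1, and per the submitters' processing notes the build was GRCm38. No source used here names a removal of ambient RNA. Counts were summed over the cells of each band and given as CPM of the band's summed UMIs, so deeper cells weigh more. Levels have exact Poisson intervals, ratios exact conditional binomial intervals and shares Clopper-Pearson intervals, all at 95%. These cover counting error only. With 1 library per group there is no test, and calls are ratios of at least 1.5 among genes with at least 20 CPM in 1 of the 2 groups compared. Clusters used 2000 variable genes without those of the rule, 30 components, 20 neighbours and Leiden resolution 0.5 (scanpy 1.11.5, python-igraph 0.11.9, scipy 1.17.1). Doublets were scored with Scrublet and kept, and leaving out the highest scores was an alternative. Named genes were, per comparison and direction, the top 12 by ratio at 100 CPM or more, up to 10 stepwise, peak and trough genes, the given markers, and members of the lists. Ratios and their intervals were tried on simulated Poisson counts, the model they assume, so the trial cannot speak to spread between cells or libraries. The members and gene lists were chosen with earlier results of these data known. Alternatives were other depth, mitochondrial, keratin and cycle limits, cell weighting, thinning, scaling and cluster settings.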

Additional observations from a re-analysis of the deposited data

How the results depend on the processing

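Of the named genes past 1.5-fold, at least 140 of 141 kept their direction against the low band and at least 110 of 111 against the high band under each of 14 alternatives that could move a ratio, and 143 of 143 against uninjured gated cells under each of 7. At least 132, 101 and 137 of them stayed past 1.5-fold. A band of 2000 to 5000 CPM held 4.63% of injured and 3.896% of uninjured gated cells, and bounds of 1000 and 8000 CPM held 11.7% of injured and 8.82% of uninjured cells. The order of the 2 libraries turned with Krt5 and Krt14 at 6000 CPM or more, at 6.67% of injured and 7.02% of uninjured cells, and with fewer than 2 cycle genes, at 6.60% of injured and 6.66% of uninjured cells. At 2-fold 436 genes were higher and 221 lower against low, 110 higher and 198 lower against high, and 410 higher and 349 lower against uninjured gated cells. With no minimum level 5439 were higher and 2670 lower against low, 4013 higher and 1356 lower against high, and 5892 higher and 2544 lower against uninjured gated cells, since genes with few UMIs then count. With cells thinned to 2000 UMIs 1001 genes were higher and 811 lower against high, and the cause was not tested. Log2 ratios that reversed were Mgp against low (0.074) and Mmp3 against high (-0.51) with Krt5 and Krt14 at 6000 CPM or more, Mgp against high after thinning (0.19), and Col1a1 against high (-0.10) without clusters 2, 7 and 9, an alternative chosen after seeing the data. The cluster with most high cells held 29.0% and the largest other cluster 39.3% of members at Leiden resolution 1, and 16.4% and 71.0% with 15 components. Depth limits single cells: 103 members had a keratin interval that reached the lower bound and 51 one that reached the upper. No paired analysis was possible because each group has 1 library.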
